A study of Homo sapiens with 11 samples.

Results

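The 10 genes described here, *CNTN3*, *CNTN6*, *CNTNAP2*, *OPCML*, *NXPH1*, *NXPH2*, *LINGO2*, *KIRREL3*, *LRP1B* and *TENM2*, encode cell-surface or secreted proteins best known from neurons. They were taken by symbol from the 36601 features of the count tables, and all 10 were found. They had been listed because their levels in cardiomyocytes differed between the samples of this series, so the levels and ratios below describe that choice and are not tested. The series holds 11 droplet single-cell RNA libraries, all from day 42.5 and all from H9, an established line of human embryonic stem cells. Of these, 3 come from a 2D culture, 3 from stable chambered cardioids (heart organoids) given PD173074, an inhibitor of FGF receptor kinases, and 5 from such cardioids without PD173074. The labels give neither the dose nor the timing of PD173074, and do not name separate cultures or differentiations.

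Neuronal adhesion proteins bind partners on neighbouring cells and help axons and synapses find and hold their contacts. Contactins are immunoglobulin-domain proteins held in the membrane by a lipid anchor, and CNTNAP2 is a transmembrane relative of the neurexins that gathers potassium channels along axons. OPCML belongs to the IgLON family of lipid-anchored adhesion proteins, and the neurexophilins NXPH1 and NXPH2 are secreted ligands of alpha-neurexins. LINGO2 carries leucine-rich repeats and an immunoglobulin domain, KIRREL3 is a relative of the kidney slit-diaphragm protein nephrin, LRP1B is a large endocytic receptor of the LDL receptor family, and TENM2 is a teneurin that binds latrophilins across the synapse. Cardiomyocytes also depend on adhesion proteins where they join end to end, though there mainly on cadherins.

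Between 99.263% and 99.872% of cell barcodes were common to any pair of libraries in a group, against 0.195% to 0.737% between groups, and a group's libraries were treated as sequencing runs of the same droplets. Each group is therefore 1 sample and no difference has a replicate check. Levels are means over runs in CPM, the UMIs of a gene scaled to the same total in each sample, a UMI being the tag of 1 captured RNA molecule, and the intervals are exact 95% intervals for counting error only. Totals per library ranged from 12266166 to 46304366 UMIs, and run 3 without PD173074 was the shallowest and stood apart from the other 4 runs in its gene counts. Leaving it out changed no count of called genes among the 10. Cardiomyocyte-like cells, named by their summed level of 15 sarcomere and heart genes such as *TNNT2* and *MYH6*, numbered 2904 of 4597 cells with PD173074, 3063 of 3534 without it and 7235 of 8183 in the 2D culture. A further 585, 96 and 3 cells lay in cluster 8, which had high cardiomyocyte genes but *MYH11*, a smooth muscle marker, among its leading genes, and which is reported by number.

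Defining markers of nerve cells were at or near 0 in the cardiomyocyte-like cells. The neuronal transcripts *STMN2*, *DCX*, *RBFOX3*, *ELAVL3* and *ELAVL4* were at most 1.84 CPM in any of the 3 samples, and the neural crest gene *SOX10* was under 1 CPM. Of the 15 listed neuron markers, 20 CPM was reached by 2 in the PD173074 sample and by 3 in each of the others, and the list summed to 116 CPM with PD173074, 257 CPM without it and 213 CPM in the 2D culture, mostly from the neurofilament genes *NEFL* and *NEFM* outside the PD173074 sample. Within that list, *SNAP25* and *SYT1*, which encode proteins of vesicle release, went the other way, at 54.4 and 25.3 CPM with PD173074, 20.5 and 9.24 CPM without it, and 18.4 and 6.18 CPM in the 2D culture. The scarce ones differed in order. *STMN2* was at 1.38, 0.034 and 0.085 CPM and *ELAVL4* at 1.84, 0.876 and 0.312 CPM in that order. *INA* was at 1.12, 0.671 and 0.246 CPM and *DCX* at 0.493, 0.182 and 0.104 CPM, also highest with PD173074. Others were highest without it, with *ELAVL3* at 0.051, 0.501 and 0.312 CPM, *RBFOX3* at 0.153, 0.228 and 0.104 CPM and *GAP43* at 1.41, 1.56 and 0.776 CPM. *TUBB3* and *MAP2*, less scarce, were lowest with PD173074. The 9 neural crest and glia markers summed to 4.58, 8.91 and 16.7 CPM in that order. The part of these markers in the results was not tested.

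On the RefSeq annotation of GRCh38.p14, the genes are spread over 6 autosomes, and most are very long. *CNTN6* (ENSG00000134115) at chr3:1093024-1404217 and *CNTN3* (ENSG00000113805) at chr3:74262568-74614659 lie on chromosome 3. Chromosome 7 carries *NXPH1* (ENSG00000122584) at chr7:8433609-8752961 and *CNTNAP2* (ENSG00000174469) at chr7:146116801-148420998, and chromosome 11 carries *KIRREL3* (ENSG00000149571) at chr11:126423358-127003394 and *OPCML* (ENSG00000183715) at chr11:132414981-133532501. Chromosome 2 carries *NXPH2* (ENSG00000144227) at chr2:138669157-138780390 and *LRP1B* (ENSG00000168702) at chr2:140231423-142131016. *TENM2* (ENSG00000145934) lies at chr5:166979029-168264157 and *LINGO2* (ENSG00000174482) at chr9:27937617-29213601. The spans run from 111 kb for *NXPH2* to 2304 kb for *CNTNAP2*, with a median of 849 kb, against a median of 44.9 kb over the 7692 tested genes with a span in the comparison with against without PD173074.

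Gene span moved with the calls over all genes. With PD173074 against without it, 11.4% of the 559 tested genes of 300 kb or more were higher and 5.37% lower, against 1.25% and 1.5% of the 5517 genes under 100 kb. With PD173074 against the 2D culture, the shares higher were 19.8% and 2.75% for the same classes. No source used here says whether reads in introns were counted, and the part of gene span in the results was not tested.

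The promoters of *CNTN3*, *CNTN6* and *KIRREL3* are shown because, over 17 groups of cardiomyocyte-like cells, *CNTN3* had its highest correlations among the members with the other two, 0.96 with *KIRREL3* and 0.94 with *CNTN6*. Each is the 250 bases before the start, 5′ to 3′ on the gene's strand, from RefSeq GRCh38.p14, at chr3:74614660-74614909 on the minus strand, chr3:1092774-1093023 on the plus strand and chr11:127003395-127003644 on the minus strand. Capitals mark a match to AGATAA on either strand, a site for heart transcription factors such as GATA4.
CNTN3: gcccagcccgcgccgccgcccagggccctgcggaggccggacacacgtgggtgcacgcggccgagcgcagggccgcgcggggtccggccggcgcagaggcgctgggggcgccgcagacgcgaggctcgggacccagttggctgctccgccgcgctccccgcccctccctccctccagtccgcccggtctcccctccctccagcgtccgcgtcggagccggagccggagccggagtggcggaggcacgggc
CNTN6: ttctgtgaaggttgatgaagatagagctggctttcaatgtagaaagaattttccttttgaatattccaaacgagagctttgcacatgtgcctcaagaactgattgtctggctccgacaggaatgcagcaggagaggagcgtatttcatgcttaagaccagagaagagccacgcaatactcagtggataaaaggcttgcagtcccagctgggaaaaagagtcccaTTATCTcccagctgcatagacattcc
KIRREL3: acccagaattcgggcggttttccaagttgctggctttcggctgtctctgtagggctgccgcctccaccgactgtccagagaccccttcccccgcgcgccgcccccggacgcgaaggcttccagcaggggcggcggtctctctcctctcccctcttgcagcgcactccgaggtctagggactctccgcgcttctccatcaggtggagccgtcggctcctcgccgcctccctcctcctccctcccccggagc
The 3 differ in base composition, with 81.6% G or C for *CNTN3*, 45.2% for *CNTN6* and 68.8% for *KIRREL3*, against a median of 58% over 35116 promoters. For motifs, 3 were searched on both strands in the 11 promoters held for 9 of the 10 genes. AGATAA was found in 3 of them, those of *CNTN6*, *LINGO2* and 1 of the 2 of *TENM2*, and in 9.17% of all promoters. The nuclear receptor core site AGGTCA, present in 12.1% of all promoters, and the T-box core site GGTGTGA, present in 2.76%, were found in none of the 11.

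Among cardiomyocyte-like cells, 8 of the 10 genes had their highest level in the PD173074 sample, the next in cardioids without it and the lowest in the 2D culture. *LRP1B* had the opposite order, and *TENM2* was highest in cardioids without PD173074. To be called higher or lower, a gene needed 20 CPM in at least 1 of the 2 samples and an interval of the ratio that lay wholly beyond 2-fold. With PD173074 against without it, 8 of the 10 genes reached 20 CPM, 5 were higher (percent called higher among 8059 genes: 2.54) and 2 lower (percent called lower: 2.07). Without PD173074 against the 2D culture, 5 reached it, 4 were higher (0.838% of 7877 genes) and 0 lower (0.114%), by the interval rule, with no p computed. With PD173074 against the 2D culture, 8 reached it, 6 were higher (4.8% of 8106 genes) and 1 lower (2.79%). These comparisons share samples and the genes were chosen on them, so nothing further is read from the counts.

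**Figure D1:**
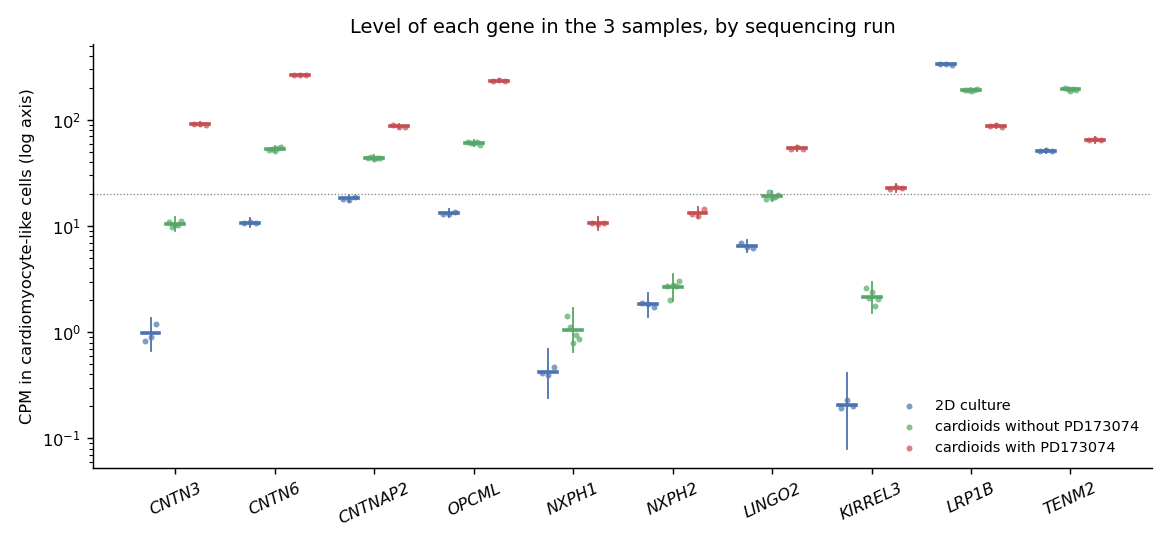
Level of each gene (CPM, log axis) in cardiomyocyte-like cells of the 2D culture, cardioids without PD173074 and cardioids with it. Points are sequencing runs, horizontal bars the mean over runs, vertical lines exact 95% Poisson intervals and the dotted line 20 CPM; 8 genes step upward from the 2D culture to the PD173074 sample, *LRP1B* steps down from 336 to 87.6 CPM, and *TENM2* peaks at 194 CPM without PD173074.

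*CNTN3*, a contactin, stood at 90.5 to 92.4 CPM over the runs with PD173074, 9.89 to 11.2 CPM without it and 0.829 to 1.19 CPM in the 2D culture. It was 8.69-fold higher with PD173074 than without it (7.46 to 10.2). *CNTN6*, a contactin that signals through Notch in oligodendrocyte precursors, had means of 265 CPM, 53.8 CPM and 10.8 CPM in the same order. The log2 ratios of these steps were 2.30 (2.20 to 2.40) and 2.32 (2.15 to 2.49). For both contactins the runs of the 3 samples did not overlap, but runs repeat the same droplets and are not replicates. *CNTNAP2* had a shallower gradient, with 87.3 CPM with PD173074 (83.2 to 91.5), 44.0 CPM without it (41.0 to 47.2) and 18.2 CPM in the 2D culture (16.8 to 19.7). Its ratio with against without PD173074, 1.98-fold (1.82 to 2.16), had an interval that reached under 2-fold.

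*OPCML*, the IgLON protein, was at 235 CPM with PD173074 (228 to 242), 60.8 CPM without it (57.2 to 64.6) and 13.2 CPM in the 2D culture (12.1 to 14.5). The secreted ligands were scarce in these cells, which do not include cluster 8. *NXPH1* had 10.7 CPM with PD173074, 1.06 CPM without it and 0.426 CPM in the 2D culture. With PD173074, cluster 8 held 671 *NXPH1* UMIs per run, against 209 in the cardiomyocyte-like cells, so this low level depends on leaving that cluster out. *NXPH2* had 13.4, 2.65 and 1.83 CPM, and both genes were under 20 CPM in each sample. The last step of *NXPH2*, without PD173074 against the 2D culture, had a log2 ratio of 0.54 with an interval from -0.02 to 1.12, so a difference was not detectable at this depth.

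*LINGO2* stood at 54.1 CPM with PD173074, 19.2 CPM without it and 6.49 CPM in the 2D culture. *KIRREL3* was close to absent in the 2D culture, at a mean of 7.33 UMIs over 7235 cells (0.208 CPM, 0.0799 to 0.409). It reached 2.15 CPM without PD173074 and 22.9 CPM with it (20.9 to 25.1), 10.7-fold apart (7.61 to 15.2). *KIRREL3* had rank 3 and *CNTN3* rank 13 from the top of the 8059 genes in the ratio with against without PD173074. Cluster 8 was not counted in that ratio. The antisense and intronic entries that overlap *KIRREL3* and *OPCML* were each at 0.228 CPM or less.

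*LRP1B*, the endocytic receptor, stood at 332 to 340 CPM over the runs of the 2D culture, 189 to 195 CPM without PD173074 and 85.4 to 90.0 CPM with it. It was 3.84-fold lower with PD173074 than in the 2D culture and 2.19-fold lower than without it. The latter call was lost under each of 3 other scalings, where the log2 ratio lay between -1.07 and -1.05. *TENM2* had 194 CPM without PD173074 (188 to 201), 64.8 CPM with it (61.3 to 68.5) and 51.0 CPM in the 2D culture (48.7 to 53.4). It was 2.99-fold lower with PD173074 than without it (log2 ratio -1.58, and -1.06 with cluster 8 added back, where neither *TENM2* nor *LRP1B* was called), while the difference from the 2D culture was 1.27-fold (1.18 to 1.37). The median log2 ratio of the members that reached 20 CPM was 1.72 with against without PD173074, 1.93 without it against the 2D culture and 3.61 with it against the 2D culture, beside -0.08, 0.07 and -0.01 over all genes tested. The members were chosen on these differences, and *CNTN3*, *LINGO2* and *KIRREL3* reached 20 CPM only in the PD173074 sample. The medians therefore describe that choice and nothing is read from them.

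**Figure D2:**
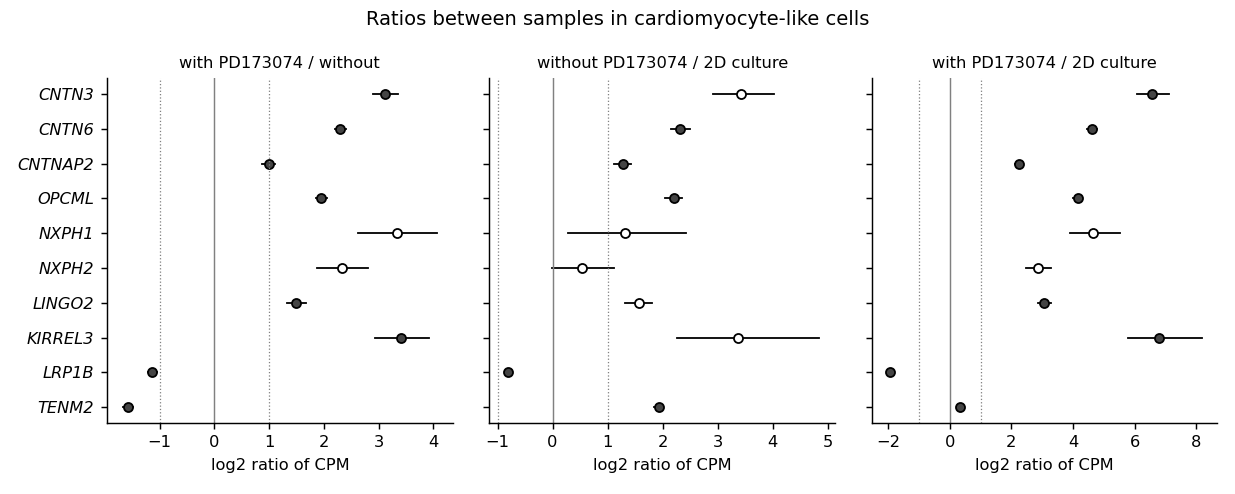
Log2 ratio of CPM in cardiomyocyte-like cells for each pair of samples, with exact 95% intervals for counting error; filled points reached 20 CPM in the higher sample, open points did not, and dotted lines mark 2-fold. *LRP1B* lies left of 0 in all 3 panels and *TENM2* only in the first, at -1.58.

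Shares of cells gave the same order. After each cell was thinned to 2000 UMIs, 31.9% of cardiomyocyte-like cells had *CNTN6* in the PD173074 sample (30.1 to 33.7), with 8.10% without it (7.14 to 9.15) and 1.74% in the 2D culture (1.44 to 2.08, exact binomial). *OPCML* was detected in 23.2%, 8.24% and 1.90%, *CNTN3* in 15.8%, 2.23% and 0.196%, and *LINGO2* in 7.31%, 3.12% and 1.33%. *LRP1B* was detected in 9.12%, 20.4% and 33.4%, and *TENM2* in 8.56%, 22.6% and 7.32%. Without thinning the share with *CNTN6* was 51.1%, 14.2% and 3.65%. The thinning left out 251, 150 and 613 shallower cells. With these cells included, the median depths in run 1 before thinning were 5900, 5369 and 4204 UMIs.

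Free RNA from lysed cells gives UMIs in cells that do not express a gene, so values in the epithelial-like cells of the PD173074 sample (531 cells, led by *GABRP* and *VTCN1*) are given beside these shares. There *CNTN6* was detected in 2.86% of thinned cells, *OPCML* in 2.10% and *CNTN3* in 0.763%, at a median depth of 10046 UMIs over all epithelial-like cells before thinning. The levels of these 3 genes in epithelial-like cells were 11.2%, 6.18% and 8.70% of those in cardiomyocyte-like cells, beside 12.1% for *TNNT2*, 7.27% for *MYH6* and 8.31% for *MYL7*, which are sarcomere genes. In the same cells *CNTNAP2* was at 41.8%, *LINGO2* at 26.3% and *TENM2* at 59.2% of the cardiomyocyte-like level. In the 87 epithelial-like cells without PD173074, *CNTN6* was at 27.0% and *CNTN3* at 15.7%, beside 8.6% for *TNNT2* and 6.76% for *MYH6*. The part of free RNA in these levels was not tested. *NXPH2* and *LRP1B* went the other way, at 159 CPM (150 to 169) and 383 CPM (368 to 398) in epithelial-like cells. *GABRP* in cardiomyocyte-like cells of that sample was 3.32 CPM against 1494 CPM in epithelial-like cells.

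**Figure D3:**
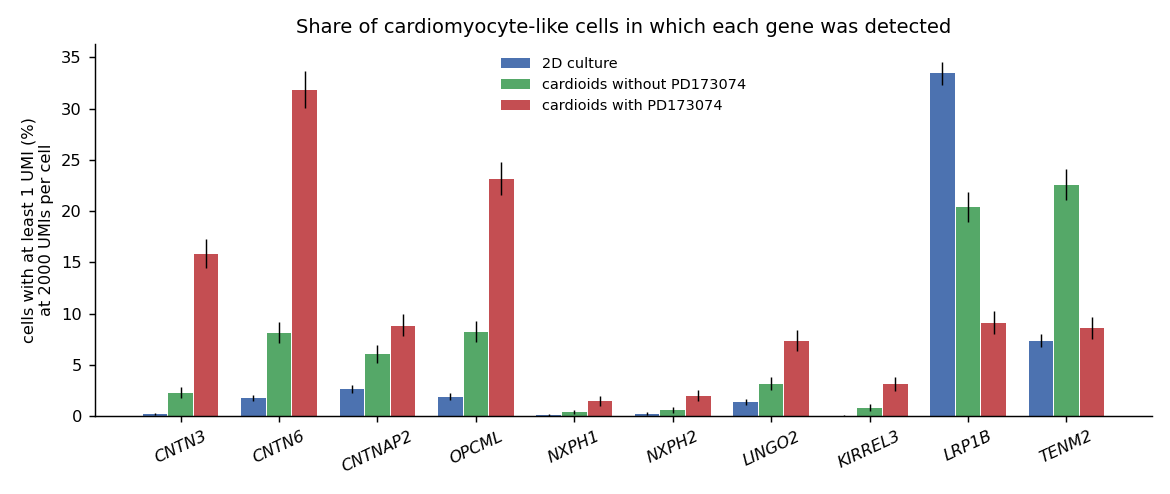
Share of cardiomyocyte-like cells (%) with at least 1 UMI of each gene after thinning to 2000 UMIs per cell, in run 1 of each sample, with exact 95% binomial intervals. *CNTN6* goes from 1.74% in the 2D culture to 31.9% with PD173074, and *LRP1B* from 33.4% to 9.12%.

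Few thinned cells had UMIs of many of the 10 genes at once. How many such cells are seen depends on depth. At 2000 UMIs per cell, 31.2% of cardiomyocyte-like cells of the PD173074 sample had UMIs of 2 or more of the 10, against 15.3% without it and 6.22% in the 2D culture. Cells with none made up 31.3%, 46.1% and 57.7%, and cells with 4 or more 1.62%, 0.378% and 0.0151%. Over the 36 pairs with enough positive cells in the PD173074 sample, the correlation of detection from cell to cell lay between -0.08 and 0.10. In the sample without PD173074 it lay between -0.05, for *CNTN3* and *TENM2*, and 0.17, for *CNTN3* and *CNTN6*. There *CNTN6* was detected in 38.5% of the 65 cells with *CNTN3* and in 7.41% of those with no *CNTN3*. In such sparse counts these correlations are a description only.

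The cells were then divided into clusters without using the 10 genes, and each cluster is described by listed markers. Cluster 2 had 5 atrial markers among its 100 leading genes, including *NPPA* and *NR2F1*, and is called atrial-like. Cluster 3 had 3 markers of the atrioventricular canal, among them *TBX3*, and is called canal-like, and cluster 11, with *MYL2* and *MYH7*, is called ventricular-like. Clusters 0 (*GRIA4*, *ALK*), 1 (*RGS4*, *FABP7*), 5 (*FGF12*) and 7 (*TFPI2*, *GFRA1* and the contactin-associated gene *CNTNAP5*) had too few markers for a name. Cluster 8, with 5 sinus node markers including *SHOX2*, stays unnamed because of *MYH11*. Clusters 10 and 12 were led by S-phase and mitotic genes. Where 1 sample makes up most of a cluster, sample and cell type cannot be told apart. Of cardiomyocyte-like cells, cluster 2 held 51.6% of those with PD173074, cluster 3 held 50.8% of those without it, and clusters 0 and 1 held 45.3% and 37.7% of those in the 2D culture.

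The 10 genes had different high points among these clusters. *CNTN3* and *OPCML* were highest in the atrial-like cluster 2, at 129 CPM (122 to 137) and 371 CPM (359 to 384) with PD173074. Both were among the 10 leading genes of that cluster, as were *TENM2* for cluster 3, *KIRREL3* for cluster 5 and *NXPH1* for cluster 8. That ranking is against all other cells. The 10 genes were not used to form the clusters, but they were chosen for differing between samples. With PD173074 came 1498 of the 1774 cells of cluster 2, and without it 1556 of the 1682 of cluster 3. The ranking therefore follows in part from that choice and nothing is read from it. Ranked against the other cardiomyocyte-like clusters and cluster 8, *KIRREL3* was not among the 10 for cluster 5, and *LRP1B* was among those for cluster 0. In the *FGF12* cluster 5 of the same sample, *CNTN6* was at 317 CPM, *KIRREL3* at 57.6 CPM (51.2 to 64.6) and *NXPH2* at 29.9 CPM (25.3 to 35.1), while *LRP1B* was at 14.7 CPM (11.5 to 18.4), its lowest value in any cluster of that sample with at least 50 cells. In cluster 7 *CNTN6* was at 342 CPM, *CNTNAP2* at 250 CPM (233 to 267) and *LRP1B* at 253 CPM (237 to 270.5), so that *LRP1B* and *CNTN6* were high in the same cluster there.

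Cluster 8 had a set of its own. *NXPH1*, the neurexophilin, stood at 141 CPM (131 to 152) there with PD173074, against 13.3 CPM in cluster 2, 1.78 CPM in cluster 5 and 10.7 CPM in cluster 7. *CNTNAP2* was at 328 CPM (312 to 344), *TENM2* at 213 CPM (200 to 226) and *LINGO2* at 91.8 CPM (83.4 to 101). These were not particular to cluster 8. With PD173074, *CNTNAP2* was at 250 CPM in cluster 7 and *LINGO2* at 73.0 CPM in cluster 2. Without it, *TENM2* was at 303 CPM in cluster 3. *OPCML* was at 29.5 CPM in cluster 8, against 371 CPM in cluster 2.

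The clusters held mostly by the 2D culture had *LRP1B* and little of the others. In cluster 0, *LRP1B* was at 432 CPM and *TENM2* at 57.9 CPM, and in cluster 1 at 243 and 35.7 CPM, while *CNTN3*, *KIRREL3*, *NXPH1* and *NXPH2* were each under 1 CPM in both. The ventricular-like cluster 11, with 471 cells of the 2D culture, had *LRP1B* at 60.3 CPM (50.7 to 71.4), *CNTNAP2* at 36.9 CPM and *CNTN6* at 21.6 CPM. In the canal-like cluster 3 of cardioids without PD173074, *TENM2* was at 303 CPM, *LRP1B* at 151 CPM and *CNTN3* at 3.18 CPM.

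**Figure D4:**
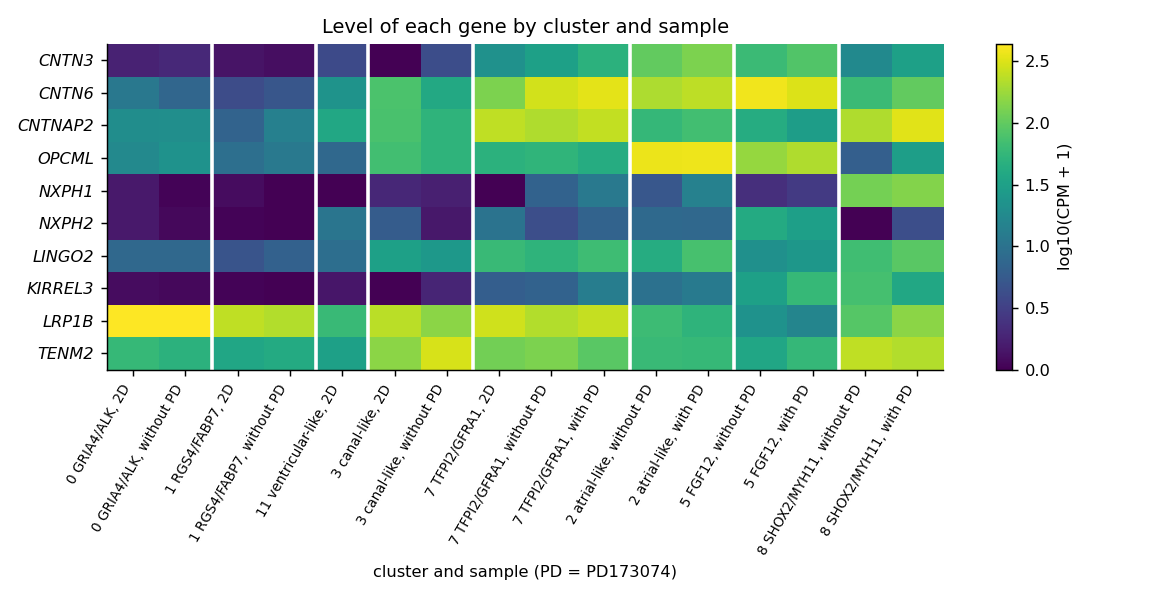
Level of each gene as log10(CPM + 1), by colour, in clusters of cardiomyocyte-like cells and cluster 8 (columns, for each sample with at least 50 cells of the cluster shown). *OPCML* is brightest in atrial-like cluster 2, *NXPH1* in cluster 8, *TENM2* in canal-like cluster 3 and *LRP1B* in cluster 0.

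Gates on single marker genes were also used. Cells with at least 2 UMIs of a marker in run 1 were set against cells with 0, over cardiomyocyte-like cells and cluster 8. With PD173074, the 446 cells with *NPPA*, an atrial natriuretic peptide gene, had *OPCML* at 390 CPM against 146 CPM, a log2 ratio of 1.42 (1.33 to 1.51), and *CNTNAP2* at 38.1 against 152 CPM. The 307 cells with *SHOX2*, a sinus node transcription factor, had *NXPH1* at 153 against 14.4 CPM, *TENM2* at 197 against 70.8 CPM and *OPCML* at 22.6 against 232 CPM. Without PD173074, the 2105 cells with *RSPO3* had *TENM2* at 227 against 96.7 CPM and *CNTN3* at 4.67 against 27.1 CPM. This did not hold with PD173074, where the 568 such cells had *TENM2* at 94.9 against 94.1 CPM and *CNTN3* at 102 against 71.0 CPM. The 4236 such cells of the 2D culture had *TENM2* at 58.1 against 36.3 CPM and *CNTN3* at 0.731 against 2.03 CPM. In the 2D culture the 254 cells with *MYL2*, the ventricular light chain, had *LRP1B* at 100 against 355 CPM. Cells past a gate were deeper except for *NPPA* without PD173074 (a median of 4867 against 4963 UMIs), for *SHOX2* a median of 9005 against 5736 UMIs, and CPM divides by that depth.

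Within clusters, the ratios with against without PD173074 of *CNTN3* and *CNTN6* lay closer to 0 than over all cardiomyocyte-like cells. In clusters 2, 5, 7 and 8, 0 of the genes that reached 20 CPM (7, 9, 7 and 9 of the 10) had a whole interval beyond 2-fold in either direction. Among all genes the percent called higher in these 4 clusters was 0.0, 0.0128, 0.0 and 0.0126, and the percent called lower 0.0515, 0.0256, 0.0374 and 0.0253. In cluster 2, *CNTN3* had 129 CPM in the sample with PD173074 and 101 CPM in that without it, a log2 ratio of 0.36 (0.06 to 0.67) beside 3.12 over all cardiomyocyte-like cells. *OPCML* there was at 371 and 360 CPM, a log2 ratio of 0.04 (-0.11 to 0.21) beside 1.95. *TENM2* had a log2 ratio of -0.06 in cluster 2 (-0.44 to 0.36) beside -1.58, and *LRP1B* one of -0.32 (-0.71 to 0.08) beside -1.13. Some genes went the other way within a cluster. *LRP1B* had a log2 ratio of 0.81 (0.32 to 1.33) in cluster 8 and 0.24 (-0.05 to 0.55) in cluster 7. *KIRREL3* had one of 0.90 (0.17 to 1.83) in cluster 5 but -0.95 (-1.52 to -0.35) in cluster 8, beside 3.42 over all cardiomyocyte-like cells. Cluster 8 is not among those cells. Without PD173074 it held 29.8 *KIRREL3* UMIs per run, against 37.8 in the cardiomyocyte-like cells. *OPCML* in cluster 8 had a log2 ratio of 2.47 (0.72 to 5.66), on 2.2 UMIs per run without PD173074. The cells without PD173074 numbered 258, 117, 123 and 96 in clusters 2, 5, 7 and 8.

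**Figure D5:**
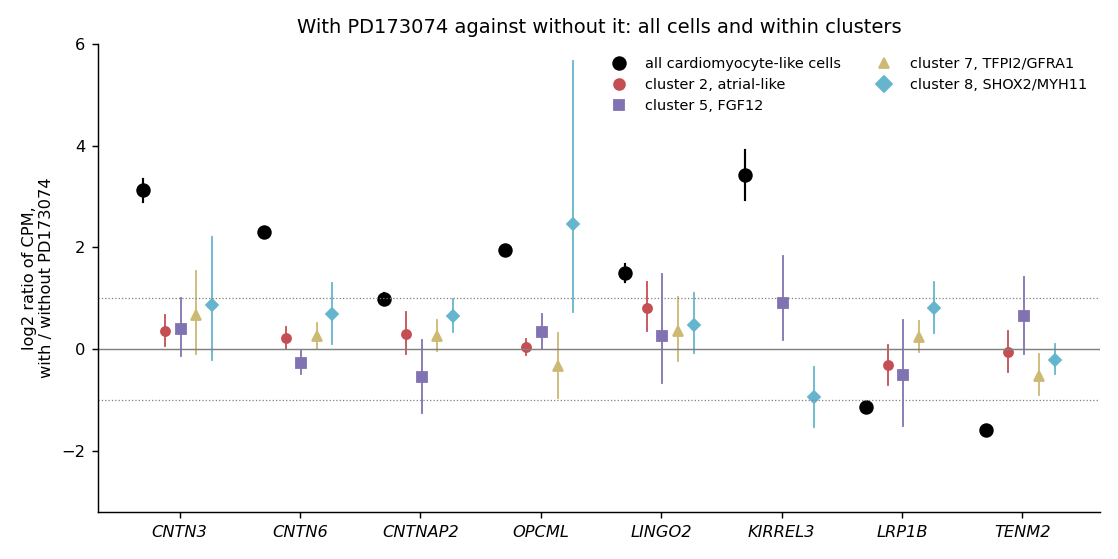
Log2 ratio of CPM with against without PD173074 for the 8 genes that reached 20 CPM, over all cardiomyocyte-like cells (black) and within clusters 2, 5, 7 and 8 (coloured, where the gene reached 20 CPM), with exact 95% intervals for counting error. For *CNTN3* and *CNTN6* the coloured points lie closer to 0 than the black ones at 3.12 and 2.30, while *KIRREL3*, at 3.42 in black, lies on both sides of 0 within clusters. Cluster 8 is not part of the black values.

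Cardioids without PD173074 and the 2D culture were compared in clusters 0 and 1. There 0 of the 3 and 2 genes at 20 CPM were called (0.0% and 0.0136% of all genes higher, 0.0% and 0.0% lower), and *LRP1B* in cluster 0 was at 435 and 432 CPM. In cluster 3, which held 84 cells of the 2D culture, 0 of 6 were called (0.0493% higher, 0.173% lower), and *TENM2* was at 303 against 151 CPM, a log2 ratio of 1.01 (0.61 to 1.44). Cluster 7 was the only cluster of at least 50 cells per sample that all 3 samples shared apart from mitotic cluster 12 and the cartilage-like cells. In it 0 of 7 genes were called in any of the 3 comparisons (without PD173074 against the 2D culture 0.26% of all genes higher and 0.413% lower, with it 0.539% and 1.28%), and *CNTNAP2* was at 240 CPM in the 2D culture, 209 CPM without PD173074 and 250 CPM with it. *CNTN6* in cluster 7 was at 132, 285 and 342 CPM in that order, with a log2 ratio of 1.37 (0.87 to 1.90) with PD173074 against the 2D culture.

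The mitotic cluster 12, which gathers dividing cells of the 3 samples (168, 129 and 159 cells), had differences between samples. It held markers of several subtypes, with *TBX3* at 154 CPM, *MYL2* at 62.2 CPM, *NR2F1* at 33.8 CPM and *SHOX2* at 25.7 CPM. In clusters led by cell cycle genes, sample and subtype cannot be told apart. With PD173074 against without it, *CNTN3*, *CNTN6*, *LINGO2* and *NXPH1* were higher there, 4 of the 8 genes at 20 CPM (0.86% of all genes higher, 0.872% lower), with *CNTN6* at 144 against 38.8 CPM, a log2 ratio of 1.89 (1.39 to 2.46). *TENM2* was at 63.9 against 151 CPM (-1.24, -1.64 to -0.86). Without PD173074 against the 2D culture, *OPCML* and *TENM2* were higher in cluster 12, 2 of 5 (0.388% higher, 0.121% lower), and also in the S-phase cluster 10, 2 of 3 (0.206% higher, 0.0243% lower), where *TENM2* was at 198 against 64.4 CPM. With PD173074 against the 2D culture, *CNTN3*, *CNTN6*, *OPCML*, *NXPH1* and *LINGO2* were higher in cluster 12, 5 of 8 (2.21% higher, 1.6% lower).

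The cardioids without PD173074 had cells in nearly every cluster of the other 2 samples, and this bears on their levels. In the 6 clusters held mostly by the PD173074 sample with at least 50 of its cells, the cells without PD173074 numbered from 16.4% to 27.7% of those with it (821 cells, of which 1 had a barcode also listed with PD173074). In the 5 clusters held mostly by the 2D culture they numbered from 9.39% to 30.5% of its cells (946 cells, of which 5 shared a barcode). In all, 1378 of the 3063 cardiomyocyte-like cells without PD173074, or 45.0%, lay in clusters held mostly by another sample. Mixing of cells or RNA between samples and cells of the same kind in each sample cannot be told apart here, and this bears on each level without PD173074. Leaving such cells out of each sample put *CNTN3* without PD173074 at 3.48 CPM in place of 10.5, *KIRREL3* at 1.16 CPM in place of 2.15, *LRP1B* at 146 CPM in place of 192 and *TENM2* at 289 CPM in place of 194. The log2 ratio with against without PD173074 was then 4.76 for *CNTN3*, 4.36 for *KIRREL3*, 2.82 for *CNTN6*, 2.32 for *OPCML*, -2.18 for *TENM2* and -0.86 for *LRP1B*, so that 5 genes were higher (3.16% of all genes) and 1 lower (2.62%). *LRP1B* was then called lower without PD173074 than in the 2D culture, at -1.21, and with *LINGO2* added 5 genes were higher and 1 lower in that comparison (1.76% and 0.701% of all genes). With PD173074 against the 2D culture the counts stayed at 6 and 1 (4.99% and 2.96%). Cells left out of the sample without PD173074 include those of cluster 2, where *CNTN3* was at 101 CPM, against 3.18 CPM in cluster 3, which was kept. Ratios with cells left out thus depend on that choice of cells and are not a correction for mixing.

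The genes whose levels were most like those of each member were found over 17 groups of cells, each a subcluster of 1 sample with at least 50 cells, which share libraries and sample-wide differences. *CNTN3* and *KIRREL3* had a Pearson correlation of 0.96 with each other and *CNTN3* and *CNTN6* one of 0.94, while *LRP1B* was negative against 8 of the other 9 members, down to -0.70 for *NXPH2*. *KIRREL3* was most like *NR2F1-AS1* (0.98), the antisense neighbour of an atrial transcription factor gene, and *NR4A3* had rank 3 (0.98). *NXPH1* was most like *SHOX2* (0.95) and *ALDH1A1* (0.94), a retinoic acid synthesis enzyme. *CNTN6* was most like *ANOS1* (0.97) and *CNTN4* (0.96), another contactin, and *CNTN3* was most like *EGFR* (0.98). *OPCML* was most like *LRRC17* (0.94) and *COL14A1* (0.92), with *TBX5*, a heart transcription factor, at rank 3 (0.91), and *LRP1B* had *KCNS3* first (0.89). First for *CNTNAP2* and *LINGO2* was *PLEKHG1* (0.95 and 0.93), for *NXPH2* *WEE1* (0.90) and for *TENM2* *TCEA1* (0.92).

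Relatives and partners of the 10 genes were also counted. Of 120 genes in 10 lists, 64 reached 20 CPM with against without PD173074, 6 were higher and 5 lower (2.54% and 2.07% of all genes tested), with a median log2 ratio of 0.31. Without PD173074 against the 2D culture, 8 of 59 were higher and 0 lower (0.838% and 0.114% of all genes), and with PD173074 against the 2D culture 16 of 64 were higher and 6 lower (4.8% and 2.79%). Among contactin relatives, *CNTN4* was at 295 CPM without PD173074 with a log2 ratio of 1.02 (0.97 to 1.06) with against without it, whereas *CNTN5* was at 1620 CPM with a log2 ratio of -0.41. *CNTNAP3B* had a log2 ratio of 2.12, though it has a near-identical copy in *CNTNAP3* and its counts are uncertain. Of the teneurins, *TENM4* had a log2 ratio of 1.68 (1.55 to 1.82), opposite in sign to *TENM2*.

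Neurexins are the receptors of neurexophilins, and *NRXN3* had 207 CPM without PD173074, with log2 ratios of 0.64 with against without PD173074 and 1.22 without it against the 2D culture. *NEGR1*, an IgLON relative of *OPCML*, had log2 ratios of 0.82 and 0.83 in these comparisons. *CLSTN2*, a calsyntenin, had 2.14 and 0.66, and the cadherin *CDH18* had 1.36 and 1.90. The protocadherin *PCDH9* was lower with PD173074, at a log2 ratio of -2.22 (-2.29 to -2.15), from 531 CPM without it, and *NRCAM*, a contactin partner, had -0.86.

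Several of the 10 genes were also present outside cardiomyocytes. In cartilage-like cells (led by *MATN4* and *ACAN*), *CNTNAP2* was at 130 CPM in the sample with PD173074, 106 CPM in that without it and 12.2 CPM in the 2D culture, on 505, 140 and 238 cells. *TENM2* was at 114, 49.4 and 17.9 CPM and *LINGO2* at 40.9, 46.9 and 9.71 CPM in that order. *CNTN6*, at 50.1 CPM with PD173074, had 18.9% of its level in cardiomyocyte-like cells, beside 15.3% for *TNNT2*, while *CNTNAP2* had 149%. With PD173074 against the 2D culture, *CNTN6*, *CNTNAP2*, *LINGO2* and *TENM2* were called higher in these cells, 4 of 6 genes at 20 CPM (2.84% of all genes higher, 1.27% lower). Without PD173074 against the 2D culture 3 of 5 were called higher, *CNTNAP2*, *OPCML* and *LINGO2* (1.69% higher, 0.195% lower), and with against without PD173074 0 of 6 were called by the interval rule (0.117% higher, 0.378% lower).

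*NXPH2* was highest in epithelial-like cells, at 159 CPM in the PD173074 sample and 111 CPM without it. It was detected in 25.2% and 23.3% of them after thinning, and 0 of 5 genes at 20 CPM were called between these samples there (0.014% of all genes higher, 0.0421% lower). Stromal-like cells of the 2D culture (703 cells) had *CNTNAP2* at 79.5 CPM and *CNTN6* at 28.5 CPM, beside 18.2 and 10.8 CPM in its cardiomyocyte-like cells. In endoderm-like cells, *LRP1B* was at 389 CPM without PD173074 and 71.2 CPM with it, and *LINGO2* at 102 and 16.7 CPM, on 74 and 55 cells. Both were called lower with PD173074 there, 2 of 6 (3.27% of all genes higher, 5.85% lower).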

How the data were processed

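The authors deposited tables of raw UMI counts, with genes in rows and cell barcodes in columns. Per the labels' protocols these came from 3′ droplet libraries, and per the submitters' processing notes from Cell Ranger 7.0.0 with build hg38. The kit version and annotation release were not found in the labels or notes. The 10 genes, the lists of relatives and the markers were chosen with earlier results of these data known.

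Cells were barcodes in every run of a sample with at least 1000 UMIs, 500 genes and at most 30% mitochondrial UMIs. Doublets were not removed. Clustering (scanpy 1.11.5, leidenalg 0.10.2, resolution 0.6) used 2000 variable genes without mitochondrial genes, ribosomal protein genes and the 10 members, then 30 components and 15 neighbours. Clusters whose cardiomyocyte list reached 50% of the median over cells were called cardiomyocyte-like, a rule set after seeing the data. A cluster was set aside where another class's markers outnumbered its own in the 10 leading genes. *FABP7*, a neural progenitor marker leading cluster 1, was exempted after seeing the data, since *SOX1* and *PAX6* were near 0 there. Subclusters served only for the likeness of genes.

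UMIs were summed per sample and averaged over runs. Level intervals are exact Poisson and ratio intervals conditional exact binomial, from the mean count per run. A count of 0 was given a floor of 3 counts. Named genes were the 10 members, up to 4 called genes of each list of relatives, and the 3 genes most correlated with each member in log2(CPM + 1). The calling was tested on simulated data. Alternatives were each library left out, 3 scalings, and other floors, folds, filters, cell sets and resolutions.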

Additional observations from a re-analysis of the deposited data

How the results depend on the processing

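No called log2 ratio of the 10 genes reversed. Of 840 alternative values 763 stayed within the counting interval and 77 moved outside it, 22 of these when all cells were used and 20 when cells in clusters held mostly by another sample were left out. With each library left out in turn, 330 of 330 stayed, and every count of called genes was the same as with all libraries. The counts of genes called higher moved by at most 1.5 times. The count of genes called lower with against without PD173074, 2 in the main analysis, was 1 under median-of-ratios, trimmed-mean and upper-quartile scaling and when cells in clusters held mostly by another sample were left out, and 0 beyond 3-fold, with all cells and with cluster 8 added back. The count lower without PD173074 against the 2D culture, 0 in the main analysis, was 1 beyond 1.5-fold and when cells in clusters held mostly by another sample were left out. The count lower with PD173074 against the 2D culture, 1 in the main analysis, was 0 with all cells. The calls lost under scaling were those of *LRP1B*, and otherwise the cause was not tested. Setting cluster 1 aside for *FABP7*, added after seeing the data, moved 13 of 30 ratios and no count by over 1.5 times. Scalings shifted all ratios of a comparison by at most 0.08 in log2. Thinned to 1000 UMIs, 26 of 30 shares moved, as fewer UMIs per cell must. No paired analysis was possible because the libraries of a group are repeat runs of the same droplets and no test was made. Depth limits *KIRREL3*, *NXPH1* and *CNTN3* in the 2D culture most, at 7.33, 15 and 34.3 UMIs per run.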
